A study of Mus musculus with 2 samples.

Results

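The genes of DNA replication and of mitosis were compared between mIMCD3 cells given the hormone FGF23 and unstimulated mIMCD3 cells. They are 32 named genes, found by their gene name among the non-control spots of both arrays, out of 34763 gene names or unnamed probes on the array. Replication genes number 15 and mitosis genes 17, and together they have 46 of 55681 probes. mIMCD3 is an established mouse line of inner medullary collecting duct epithelium, grown per the labels in DMEM/F12 with 10% serum. One group received 10 ng/mL FGF23 for 4 h and the other did not, and the labels do not say whether serum was withdrawn first. RNA of both groups was hybridised together on each of 2 Agilent arrays with the dyes exchanged: FGF23 RNA carried Cy3 on array 1 and Cy5 on array 2. The labels do not say whether the arrays held RNA of separate cultures. The p-values and intervals thus measure only spread between these 2 arrays, mostly that shared over all genes, and it may be technical.

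A dividing cell first licenses its replication origins by loading the Mcm2 to Mcm7 helicase with the help of Cdc6, then fires them in S phase under cyclin E and cyclin A kinases, and later builds and checks a spindle under cyclin B with Cdk1, Plk1 and the Aurora kinases. Many replication genes are transcribed by E2F factors once the retinoblastoma protein is inactivated. Many mitosis genes are transcribed later in the cycle through a promoter element called CHR, which the DREAM and MMB complexes bind. Levels of both groups in a culture therefore follow how many of its cells are cycling, and in RNA of whole cultures fewer cycling cells and less RNA per cycling cell cannot be told apart.

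A few promoters are given here because their letters differ between the classes. RefSeq promoters (GRCm38.p6, 250 bases before to 50 after the start) were matched for 28 of the 32 genes. Aurkb, Ccna2, Ccne2 and Mcm4 had no entry, and Mcm7 had 2 starts, either of which counted. On either strand, the CHR letters TTTGAA stood in 10 of 15 mitosis genes (66.7%) and in 2 of 13 replication genes (15.4%), against 20.2% of all 27025 genes with an entry. E2F letters (TTTCCCGC, TTTCGCGC, TTTGCCGC or TTTGGCGC) stood in 5 of 13 replication genes (38.5%), namely Cdc6, Mcm3, Mcm5, Mcm6 and Mcm7, and in 1 of 15 mitosis genes, Cdk1, against 2.6% of all genes. CCAAT stood in 13 of 15 mitosis and 8 of 13 replication genes, against 41.1% of all. The E2F words can overlap each other on opposite strands, as they do once in Mcm6. These are matches of letters, not measured binding sites. Starts were used as listed and were not checked, so letters near another start of a gene, E2f1 for example, would be missed.

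**Figure D1:**
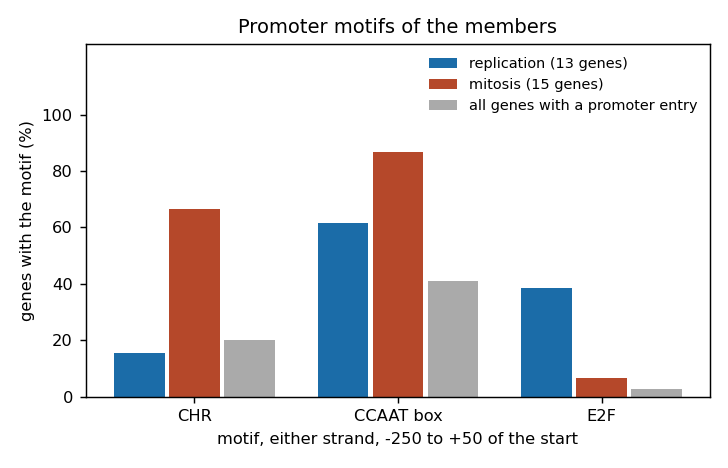
The bars give the percentage of genes whose RefSeq promoter holds each motif, on either strand, from 250 bases before to 50 after the start. CHR letters stand in 66.7% of mitosis genes and 15.4% of replication genes, and E2F letters in 38.5% of replication genes.

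The last 150 bases before the start are shown for a replication gene with E2F letters (Mcm6), a mitosis gene with CHR letters (Kif11) and the single member with both (Cdk1), with E2F, CHR and CCAAT letters in capitals on either strand. They lie at chr1:128359706-128359855 (minus strand), chr19:37376232-37376381 (plus strand) and chr10:69352913-69353062 (minus strand) of GRCm38.p6.
Mcm6: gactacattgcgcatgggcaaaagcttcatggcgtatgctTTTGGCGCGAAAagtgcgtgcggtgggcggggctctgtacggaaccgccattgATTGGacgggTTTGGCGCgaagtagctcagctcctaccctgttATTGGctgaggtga
Kif11: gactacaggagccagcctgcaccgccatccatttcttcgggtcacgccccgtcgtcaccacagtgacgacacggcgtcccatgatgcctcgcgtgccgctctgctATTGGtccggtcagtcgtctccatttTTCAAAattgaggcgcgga
Cdk1: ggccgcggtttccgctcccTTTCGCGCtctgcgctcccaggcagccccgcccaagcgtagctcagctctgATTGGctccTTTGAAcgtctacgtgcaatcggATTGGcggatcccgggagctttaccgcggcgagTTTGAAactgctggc

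Of the 32 genes, 31 were measured, all of them well above background in both dyes on both arrays. The remaining gene, Ccne2 (cyclin E2), had 1 dim probe that was not well above background in both conditions, so no ratio is given for it. The arrays were alike in quality, with 48.2% to 55.2% of non-control spots well above background in a dye, no saturated spot, and no outlier flag on any spot of a member. Collecting duct markers were measured for 13 of 16 genes, Epcam, Cdh1, Pax2 and Aqp2 among them and Avpr2, Aqp3 and Elf5 not. Of other lineages, 1 of 7 fibroblast, 2 of 6 macrophage, 2 of 5 endothelial and 3 of 5 proximal tubule markers were measured. None of these 5 marker lists had a gene past the test. Per the file headers, spike-in controls gave a slope of 0.851 to 0.852 of observed on expected log ratios in the scanner software's own values. The slope of the ratios used here was not tested.

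After 4 h of FGF23, no replication or mitosis gene passed limma's test as higher or lower. Mean ratios lay between 0.912-fold (Tk1) and 1.09-fold (Ccnb2), and 28 of 31 genes had a mean log2 ratio within 0.1 of 0. The median size of the mean log2 ratio was 0.044 over members and 0.054 over all genes, so small means were not particular to the members. The 95% interval of each of the 31 genes held 0 and lay inside 1.5-fold in either direction. The lowest bound of any gene was 0.755-fold (Kif11) and the highest 1.24-fold (Ccnb2). The median interval reached 0.19 log2 units to each side, which is 1.14-fold. That is a limit for a single gene without adjustment over genes. The intervals rest mostly on the spread shared over all genes, with 11.9 degrees of freedom against 1 from a gene's own arrays. Their half-widths ran only from 0.19 to 0.27, while SDs over arrays ran from 0.013 (Bub1b) to 0.48 (Kif11). That all lay inside 1.5-fold therefore depends on the shared spread.

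Limma's test over 19220 genes called 9 genes at an adjusted p under 0.05, or 0.0468% of genes, and 0 of the 31 members. At an unadjusted p under 0.05 there were likewise 0 of 31 members, where 3.91% of all genes were. The smallest unadjusted p of a member was 0.15, and all had an adjusted p of 1.0 (Benjamini-Hochberg over all genes). The smallest log2 ratio among the 9 called genes was 0.59 in size, or about 1.5-fold, against at most 0.13 for the means of the members. No member passed the test in any of the 7 processing alternatives, of which the one without a filter on dim probes measured all 32 genes and the others 31.

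**Figure D2:**
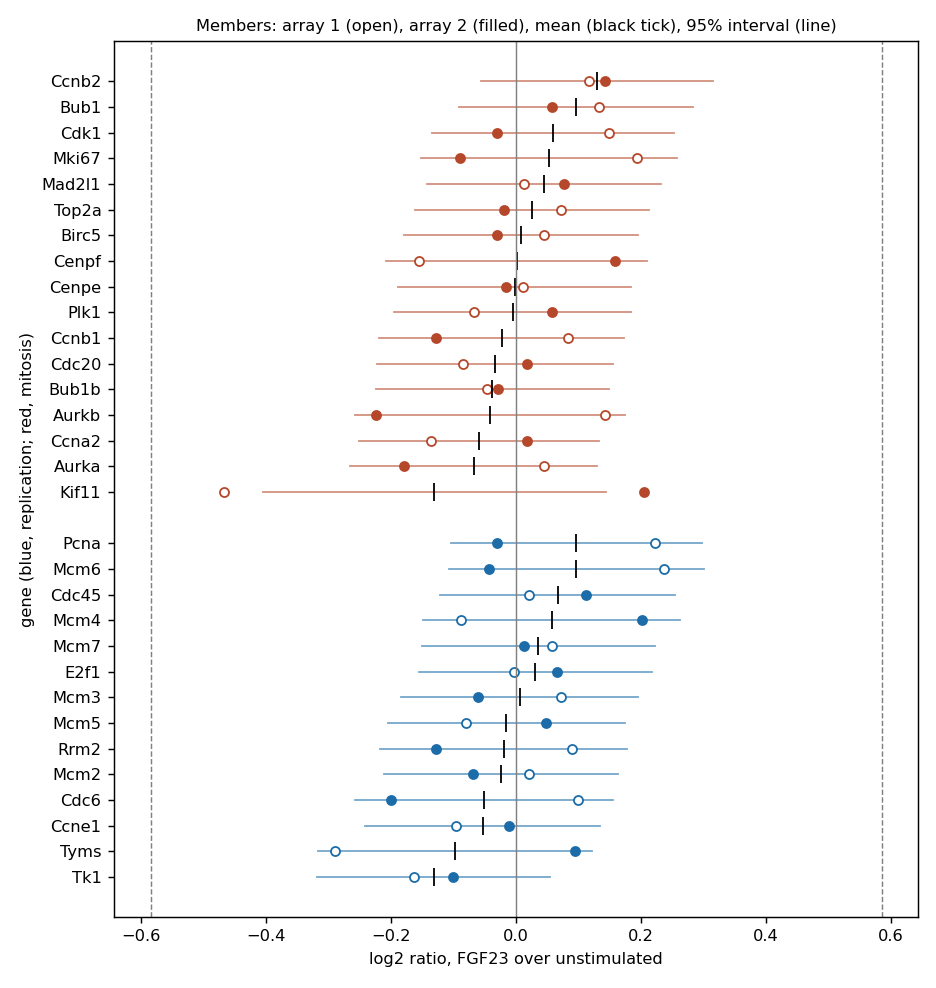
Each row is a gene, with its log2 ratio of FGF23 over unstimulated on array 1 (open circle) and array 2 (filled circle), their mean (black tick) and limma's 95% interval of the mean (line); dashed lines mark 1.5-fold. The intervals of all 31 genes cross 0 and stay inside the dashed lines, and Kif11 has the widest gap between its arrays.

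Replication genes and mitosis genes did not separate. The median log2 ratio of the 14 measured replication genes was 0.021 on array 1 and -0.021 on array 2. That of the 17 mitosis genes was 0.044 and -0.016, and that of all 19220 genes -0.012 and 0.015. Replication minus mitosis was thus -0.023 on array 1 and -0.0048 on array 2, a mean of -0.014 ± 0.013 (SD, n = 2 arrays). A difference of this size is about as large as its spread, and 2 arrays cannot give an exact sign permutation p below 0.5. Over the means of the arrays, the medians were -0.0053 and -0.0025, with -0.00068 over all genes. When the kept probes of a gene were averaged, the difference of the medians was 0.035, and without the filter on dim probes it was 0.0079, both of opposite sign.

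**Figure D3:**
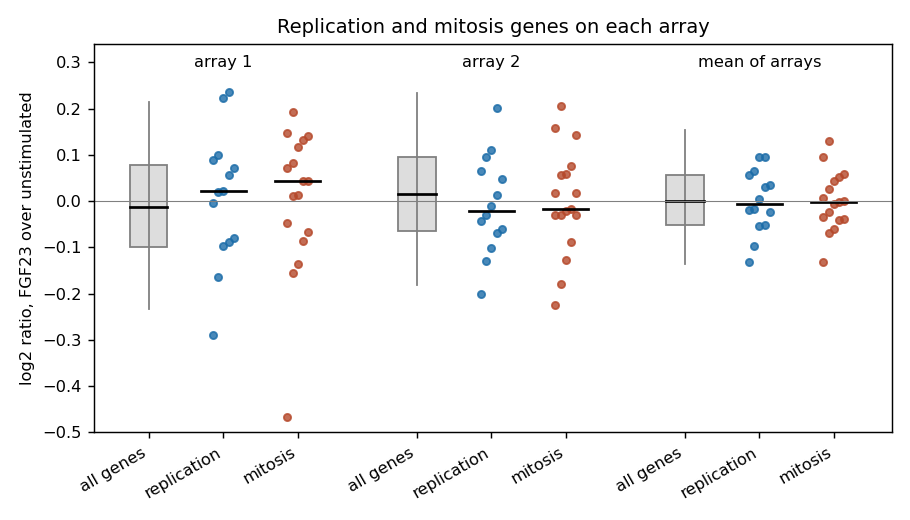
Points are genes, by class, with their log2 ratio of FGF23 over unstimulated on array 1, on array 2 and as the mean; black lines are medians, and grey boxes and lines span the quartiles and the 5th to 95th percentiles of all 19220 genes. The medians of both classes lie within 0.044 of 0 on each array and swap from above to below 0 between array 1 and array 2.

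By role, medians of the means ran from -0.098 for nucleotide synthesis to 0.035 for origin licensing and fork genes. Among the origin licensing and fork genes the median of the means was 0.035 over 9 genes. Of these, 2 (Mcm7 and Cdc45, 22.2%) were above 0 on both arrays and 0 below, against 23.9% and 22.3% of all genes. Mcm7 had log2 ratios of 0.057 and 0.013, and Cdc45, which joins the Mcm ring in the active helicase, had 0.021 and 0.11. The helicase subunits Mcm2, Mcm3, Mcm4 and Mcm5 had means between -0.024 and 0.057, each with opposite signs on the arrays.

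Mcm6, the helicase subunit with the largest mean, had a normalised log2 intensity of 15.51 with FGF23 and 15.28 without on array 1, and 15.42 and 15.47 on array 2. Its log2 ratios were 0.24 and -0.044, a mean of 0.096 ± 0.20 (SD, n = 2 arrays; 95% interval -0.11 to 0.30; adjusted p = 1.0 in limma). Pcna, the sliding clamp of the replication fork, did the same, at 14.83 and 14.61 on array 1 and 14.67 and 14.70 on array 2. Its log2 ratios of 0.22 and -0.030 gave a mean of 0.096 ± 0.18 (interval -0.10 to 0.30). In both genes the conditions were apart on array 1 and nearly level, the other way round, on array 2. The probes of Mcm6 and Pcna are listed on chromosome 1 from 130228178 to 130228237 and on chromosome 2 from 132075022 to 132075054 (mm9). The interval listed for Pcna is shorter than its probe of 60 bases.

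The nucleotide synthesis genes, with 3 members, had the lowest median, -0.098. Tk1, the thymidine kinase that salvages thymidine for DNA synthesis, had a normalised log2 intensity of 12.79 with FGF23 and 12.95 without on array 1, and 12.87 and 12.97 on array 2. It was lower with FGF23 on both arrays, at -0.16 and -0.10 (mean -0.13 ± 0.044, interval -0.32 to 0.054, adjusted p = 1.0 in limma). The other kept probe of Tk1 gave -0.27 and -0.14, so the kept probes were below 0 on both arrays. They share RNA and labelling, so they are not replicates of the condition. The kept probes lie on chromosome 11 from 117676845 to 117676904 and from 117683390 to 117683449 (mm9). A dimmer probe of Tk1, which was not kept, gave -0.31 on array 1 and 0.046 on array 2. Tyms, the thymidylate synthase, had 8.44 and 8.73 on array 1 and 8.57 and 8.47 on array 2. Its ratios of -0.29 and 0.094 (mean -0.098 ± 0.27, interval -0.32 to 0.12) had opposite signs. Rrm2, the small subunit of ribonucleotide reductase, had 0.089 and -0.13.

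Of the regulators of S-phase entry, Ccne1 (cyclin E1) had -0.096 and -0.012 (mean -0.054 ± 0.060, interval -0.24 to 0.13), but its dimmer second probe had 0.18 and -0.085. The transcription factor E2f1 had -0.0041 and 0.065. Cdc6, the loader of the Mcm ring, had 0.099 and -0.20 (mean -0.051 ± 0.21, interval -0.26 to 0.16) in its brighter probe, and 0.086 and 0.22 in the other. Those probes thus had opposite signs on array 2. The gap between their means over both arrays, 0.20, was the largest among the 9 genes with several kept probes.

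Among the 7 mitotic cyclins and kinases the median of the means was -0.023. Ccnb2 (cyclin B2) had a normalised log2 intensity of 13.26 with FGF23 and 13.14 without on array 1, and 13.21 and 13.07 on array 2. It was higher with FGF23 on both arrays by nearly the same amount, 0.12 and 0.14 (mean 0.13 ± 0.019, interval -0.057 to 0.32, adjusted p = 1.0 in limma). Its single probe lies on chromosome 9 from 70255671 to 70255730 (mm9). Its partner kinase Cdk1 had 0.15 and -0.031 (mean 0.059 ± 0.13, interval -0.13 to 0.25), with 2 other probes at 0.077 and -0.025 on average. The kinase Aurka, which matures the spindle poles, had 13.09 and 13.05 on array 1 and 13.07 and 13.25 on array 2. Its log2 ratios were 0.044 and -0.18 (mean -0.068 ± 0.16, interval -0.27 to 0.13). Aurkb, the kinase of the chromosomal passenger complex, had 0.14 and -0.22, and Ccna2 (cyclin A2), used in S phase and mitosis, had -0.14 and 0.017. Plk1 had -0.068 and 0.057. None of these last 4 genes had 1 sign on both arrays.

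Cyclin B1 (Ccnb1) was read by 3 probes whose signs differed on the same array, so their first 30 of 60 bases are shown. On mm9 chromosome 13 they lie from 101548722 to 101548781, from 101551224 to 101551283 and from 101553449 to 101553508, in the order given.
Ccnb1 probe 1: gccacctggaaaagaatcctgtctcatttg
Ccnb1 probe 2: tatgaggagatgtaccctccagaaataggt
Ccnb1 probe 3: tgagtgatgtagacgcagatgatggagctg
Probe 1, the brightest, gave 0.082 on array 1 and -0.13 on array 2. Probe 2 gave -0.24 and 0.038, and probe 3 gave -0.33 and 0.16. The sign turned between arrays in all 3, with probe 1 opposite to the others, while their means stayed between -0.10 and -0.023.

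In the spindle checkpoint, which holds anaphase until every kinetochore is attached, 3 of 4 genes had 1 sign on both arrays. Of these, 2 were above 0 and 1 below, where 23.9% of all genes were above 0 on both arrays and 22.3% below. Mad2l1 had 0.012 and 0.076, and its 2 further probes were also above 0 on both arrays, with probe means of 0.044 to 0.083 in all. These probes share RNA and labelling, so they are not replicates of the condition. Bub1b had -0.047 and -0.029, and Cdc20, the activator of the anaphase-promoting complex, had -0.086 and 0.018.

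Bub1, a checkpoint kinase, was the member measured most often, since its probe was printed 10 times on each array (chromosome 2 from 127626988 to 127627047, mm9). The first 30 bases of that probe are given.
Bub1 probe: aacaagattaagaccttgcgtaataggcta
Its normalised log2 intensity was 11.03 with FGF23 and 10.90 without on array 1, and 10.98 and 10.92 on array 2. All 10 spots were above 0 on array 1, from 0.089 to 0.16 with an SD over spots of 0.023, and all 10 on array 2, from 0.0071 to 0.10 with an SD of 0.036. The array means were 0.13 and 0.058, a mean of 0.095 ± 0.053 (SD, n = 2 arrays; interval -0.092 to 0.28; adjusted p = 1.0 in limma). The 10 spots share RNA and labelling, so they show the precision within an array and are not replicates of the condition.

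**Figure D4:**
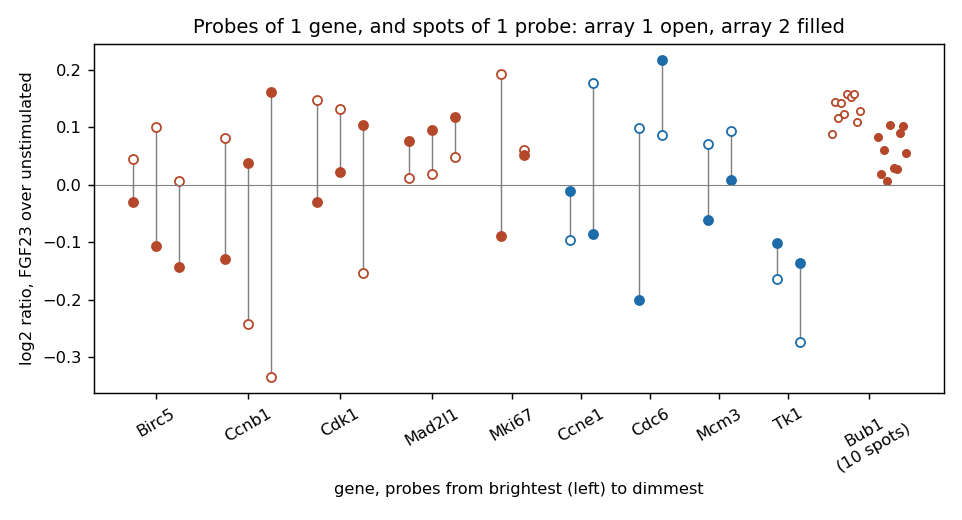
For the 9 genes with several kept probes, each column is a probe with its log2 ratio of FGF23 over unstimulated on array 1 (open) and array 2 (filled); for Bub1, points are the 10 spots of its probe. The spots of Bub1 and the probes of Mad2l1 lie above 0 on both arrays, and the probes of Tk1 below. Probes of the other genes have values on both sides of 0.

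Among the 6 genes of chromosomes, kinetochore and spindle, none had 1 sign on both arrays, where 53.8% of all genes had opposite signs. Kif11, the motor that pushes spindle poles apart, had the widest spread of any member. Its normalised log2 intensity was 9.95 with FGF23 and 10.41 without on array 1, and 10.25 and 10.04 on array 2. Its log2 ratios of -0.47 and 0.21 gave a mean of -0.13 ± 0.48 (SD, n = 2 arrays; interval -0.41 to 0.14; adjusted p = 1.0 in limma). Kif11 was brighter in Cy5 than in Cy3 on both arrays, by 0.34 on average. Its interval rests mostly on the spread shared over all genes and is narrower than its own arrays would give. The proliferation marker Mki67 had 0.19 and -0.089 in its brighter probe, and 0.061 and 0.052 in the other. Top2a, the topoisomerase that untangles sister DNA, had 0.071 and -0.020, and the kinetochore genes Cenpe and Cenpf had 0.011 and -0.016, and -0.16 and 0.16. Birc5 (survivin) had 0.044 and -0.030 (mean 0.0069 ± 0.053, interval -0.18 to 0.19), and its 3 probes had means from -0.069 to 0.0069.

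Most members had opposite signs on the arrays. Of 31 members, 5 were above 0 on both arrays (16.1%, against 23.9% of all genes) and 3 below 0 on both (9.68%, against 22.3%). The other 23 (74.2%) had opposite signs, which means the same dye was brighter on both arrays. That share was 53.8% over all genes. With median centring no member had 1 sign on both arrays. The share over all genes was not counted in that setting, so this cannot be read as a trait of the members. Across the 31 members, array 1 correlated with array 2 at -0.53 (Pearson) and -0.53 (Spearman), against -0.12 and -0.084 across 19220 genes. These points share both arrays and are not independent replicates. In 25 of 31 genes the SD over arrays exceeded the size of the mean. The median SD and the median size of the mean were 0.090 and 0.044 over members, against 0.087 and 0.054 over all genes.

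**Figure D5:**
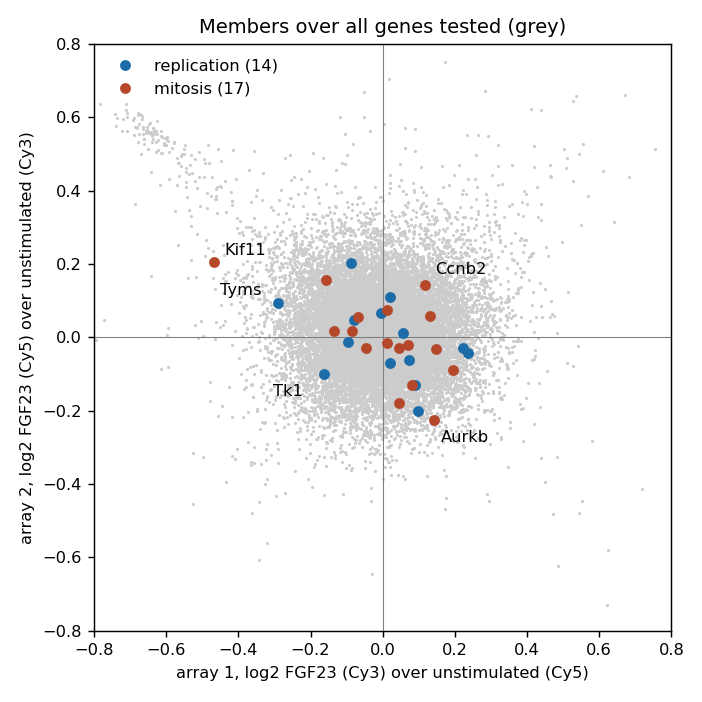
Each point is a gene, with its log2 ratio of FGF23 over unstimulated on array 1 (x axis) and array 2 (y axis); grey points are all genes tested, of which 8 lie outside the axes. Of the 31 members, 23 lie in the upper left or lower right, where the arrays have opposite signs, and Kif11 lies farthest out.

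Probe pairs whose letters overlap give 2 readings of nearly the same stretch. Each of these probes has 1 spot per array, so dependence on the probe cannot be told apart from scatter between spots. For scale, the spots of the Bub1 probe ran from 0.089 to 0.16 on array 1 and from 0.0071 to 0.10 on array 2. The pair for Mcm3 shares 43 of 60 bases with 1 difference, A14G in the stretch shown, counted from its 5′ end. The first is the probe to the RefSeq transcript, and the differing base is in capitals.
Mcm3 probe 1: aagctttctttgcAattagactagtatgta
Mcm3 probe 2: aagctttctttgcGattagactagtatgta
Their mean log2 intensities were 14.54 and 14.49, and their log2 ratios were 0.072 and -0.061 for probe 1, and 0.093 and 0.0077 for probe 2. The brightest 2 probes of Cdk1 are offset by 19 bases and share 41, of which 30 are aattaacatgtaaatattattccatatgaa, with no difference. Their mean log2 intensities were 12.41 and 8.48, but their log2 ratios were near each other, at 0.15 and -0.031 for the brighter and 0.13 and 0.022 for the dimmer. Over the 9 genes with several kept probes, probe means had 1 sign in 5 genes and mixed signs in 4 (Birc5, Cdk1, Ccne1 and Cdc6).

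No further gene of these pathways passed either. Of 49 further replication genes, such as the origin recognition, polymerase and replication factor C subunits, 49 were measured and 0 passed limma's test, with 1 at an unadjusted p under 0.05. Their median log2 ratio was 0.026 (0.020 on array 1 and 0.0034 on array 2), with 14 above 0 on both arrays (28.6%) and 9 below (18.4%). Over all genes these shares were 23.9% and 22.3%. The largest mean of 1 sign was that of Orc2, a subunit of the origin recognition complex, at -0.21 and -0.24 (mean -0.23 ± 0.021, interval -0.41 to -0.039, unadjusted p = 0.021, adjusted p = 1.0 in limma). The histone chaperone subunit Chaf1b had 0.21 and 0.031. A second probe of Chaf1b gave 0.13 and 0.14.

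Of 49 further mitosis genes, 49 were measured, 0 passed limma's test and 0 had an unadjusted p under 0.05. Their median was 0.0083 (-0.0094 and 0.027), with 11 above 0 on both arrays (22.4%, against 23.9% of all genes) and 5 below (10.2%, against 22.3%). Cep55, an abscission protein, had -0.057 and -0.18, the kinetochore subunit Spc25 had 0.14 and 0.078, and the cytokinesis factor Ect2 had 0.11 and 0.081, although a dimmer probe of Ect2 gave -0.097 and 0.0039. The medians of both further lists lay within 0.03 of 0 on each array.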

How the data were processed

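The authors deposited Agilent Feature Extraction output (version 11.5.1.1, per the file headers) for 2 arrays on 1 slide with 1 scan time, so no batch within it could be compared. For each spot and dye, the deposited files hold a linear intensity with its local background, plus the software's own background-subtracted, dye-normalized log10 ratio (Cy5 over Cy3). They also flag spots as outliers, as saturated or as well above background. Probe positions are on mm9. Exon and UTR positions of probes were not analysed here.

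Mean signals were corrected with normexp (offset 50) and loess-normalized within arrays in limma 3.58.1 (R 4.3.3), with control spots at weight 0. Ratios were turned to FGF23 over unstimulated by the labelled dyes. Outlier spots were dropped, spots of a probe averaged, and a probe was kept if 1 condition was well above background on both arrays (26941 of 55681). The brightest kept probe stood for a gene. Limma's lmFit and eBayes tested 19220 genes, with Benjamini-Hochberg adjustment at 0.05. They had 1 residual degree of freedom and 11.9 from the spread shared over genes. A dye term would leave no residual degree of freedom. Normalised intensities per condition were also scaled between arrays (Aquantile). The test was checked on simulated data. Symbols were updated through RefSeq (28026 probes matched, 1651 renamed).

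The genes and lists were chosen with earlier results of these data known. All 32 genes are named. Full values go to the 4 of each class with the largest mean and to those whose probes disagree in sign. Each further list names the 3 of 1 sign with the largest mean, of which 1 is not reported here. Letters of promoters and probes were read from the RefSeq table and the array files.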

Additional observations from a re-analysis of the deposited data

How the results depend on the processing

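Each ratio pairs the conditions within an array, so the fit reported is the paired one. Precision is limited by there being only 2 arrays. The dimmest members were Cenpf and Aurkb, at mean log2 intensities of 7.22 and 7.33. In each of the 7 processing alternatives 0 members and 0 genes of either further list passed. For what moved, the cause was not tested. Genes past the test over all genes, 9 in the fit reported, numbered 0 with Agilent's processed log ratio, 5 with a normexp offset of 0, 0 with median centring, 17 with averaged probes and 79 with an intensity trend and robust prior. Averaged probes gave a replication median of 0.029 and a replication minus mitosis difference of 0.035, and the difference was also above 0 without the filter (0.0079). On single arrays the replication median ran from -0.021 to 0.021, the mitosis median from -0.016 to 0.044 and their difference from -0.023 to -0.0048. Of single genes under a processing alternative, 211 values kept their sign and 6 turned it. Many of the 211 could not turn. Both changes of the filter and the intensity trend with robust prior left the ratio of every member as it was. Averaging probes could change only the 9 genes with several kept probes. With median centring the turned values were Birc5 at -0.018, Mcm3 at -0.018 and Cenpf at -0.028. With averaged probes they were Birc5 at -0.022 and Cdc6 at 0.050, where Cdc6 had -0.051 in the fit reported. With Agilent's log ratio Cenpe turned, at 0.017.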

Other observations

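The E2F factors, their Tfdp partners, the pocket proteins and the MuvB subunits were measured for 13 of 13 listed genes. In general these set when genes such as those above are transcribed. Whether that control operates in mIMCD3 cells was not tested. None passed limma's test (adjusted p = 1.0 for each) and 0 had an unadjusted p under 0.05. The median over the list was 0.0061 on the log2 scale (array 1 0.019, array 2 0.0045). Above 0 on both arrays were 4 genes (30.8%, against 23.9% of all genes) and below 0 on both 1 (7.69%, against 22.3%). The retinoblastoma gene Rb1, whose protein can hold E2F factors inactive, had 0.33 and 0.048 (mean 0.19 ± 0.20, SD, n = 2 arrays, 95% interval -0.017 to 0.39). The partner gene Tfdp2 had 0.14 and 0.0045, with a second probe at 0.087 and 0.027, and the repressor E2f6 had 0.11 and 0.019. The pocket protein genes Rbl1 and Rbl2 had opposite signs on the arrays.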
